A study of Mus musculus with 3 samples.

Results

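Among mouse thymic epithelial cells cultured as whole lobes or as reaggregates, 276 cells carried a high level of Aqp3, the gene of an aquaglyceroporin that passes water and glycerol through the plasma membrane. They were chosen by their own counts. A cell entered with at least 10 unique molecular identifiers (UMIs, 1 for each captured transcript) of Aqp3 and at least 1 of Epcam, the epithelial adhesion molecule. It could hold at most 2 UMIs of Psmb11, 1 of Aire and 1 of Cd3e, and the airway-type genes Bpifa1, Wfdc2, Lcn2 and Gp2 had to stay under 1% of its UMIs. The 276 cells were 192 from the fetal thymic organ culture (FTOC) and 84 from the organoid reaggregate (ORFTOC), out of 3012 Epcam-positive cells and 9349 cells with a known pool. Of 308 Epcam-positive cells with enough Aqp3, 32 were left out by a limit, namely 12 FTOC and 20 ORFTOC cells. No cell reached the Aqp3 minimum without an Epcam UMI.

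The FTOC were intact lobes of fetal wild-type (WT) mouse thymus. The ORFTOC were wild-type as well. They combined thymic epithelial cells, grown as organoids from older embryos than the lobes, with Epcam-depleted fetal thymus cells and mouse embryonic fibroblasts. The labels give no treatment for either, and both were cultured for 13 days on floating filters in medium with the growth factor FGF7, with the kinase inhibitor thiazovivin at the start, then 2 cultures of each kind were combined, the cells of each kind were marked with 1 hashtag antibody, and both were run as 1 droplet experiment read as gene, hashtag and T-cell receptor libraries. Each pool therefore stands for 1 sample, no test between pools was possible, and the other Epcam-positive cells of the same pool served as the comparison.

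Aqp3 is best known from the basal layer of stratified epithelia such as the epidermis and from the kidney collecting duct. Cells short of oxygen stabilise the transcription factor HIF-1, which turns on glycolytic enzymes, the glucose carrier Slc2a1, the lactate carrier Slc16a3, Vegfa and the prolyl hydroxylases Egln1 and Egln3 that in turn destabilise HIF. Thymic epithelium itself is usually divided into cortical cells, which make the protease Prss16 and the chemokine Ccl25, and medullary cells, many of which make Krt5, Krt14 and Ccl21a.

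Aqp3-high cells held 16.2% of Epcam-positive FTOC cells (192 of 1182, 95% interval 14.2 to 18.5) and 4.59% of Epcam-positive ORFTOC cells (84 of 1830, 3.68 to 5.65). Shares have exact Clopper-Pearson intervals and levels exact Poisson intervals, and both cover counting error only. The FTOC pool gave 69.6% of the Aqp3-high cells (63.8 to 74.9) against 39.2% of all Epcam-positive cells. The pool of an Aqp3-high cell was harder to read than that of its neighbours. By the hashtag rule 79 of 355 such cells had no pool (22.3%), against 330 of 3066 other Epcam-positive cells (10.8%). The median hashtag count was 682 UMIs in FTOC Aqp3-high cells, 1196 in other FTOC cells and 2998 in ORFTOC Aqp3-high cells. When at least 95% of the hashtag UMIs had to fall in 1 pool, 46 FTOC and 73 ORFTOC cells remained, and the shares were 8.76% and 4.58%. Transcripts of the sex chromosomes gave a second reading of the pools that the hashtags had not used. A UMI of a Y-linked gene was seen in 0 of 192 FTOC Aqp3-high cells, with an upper bound of 1.90%, and in 41 of 84 ORFTOC Aqp3-high cells (48.8%). Among the 79 cells with no pool it was seen in 1, and Xist was detected in 96.2% of them, as in 96.4% of the FTOC and 47.6% of the ORFTOC Aqp3-high cells. The cells with no pool were not assigned from this and were left out of all comparisons.

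Depth was highest in ORFTOC Aqp3-high cells. The median was 11294 UMIs a cell in FTOC Aqp3-high cells and 12060 in other FTOC cells, and 14794 and 12874 in the ORFTOC groups. T-cell receptor beta chains were recovered from 2 of 192 FTOC and 3 of 84 ORFTOC Aqp3-high cells, against 13.7% and 13.5% of the other Epcam-positive cells, which hold the cells over the Cd3e limit. Levels are given as CPM, a gene's UMIs summed over all cells of a group and scaled to the group's total UMIs, and a log2 ratio compares 2 such levels. Aqp3 itself, which the rule used, ran from 477 to 6027 CPM in single FTOC Aqp3-high cells with a median of 1519, and from 382 to 3818 in ORFTOC cells with a median of 1248.

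Cells on either side of the minimum of 10 Aqp3 UMIs were few and differed by pool. FTOC cells just inside it, with 10 or 11 UMIs, held 3355 CPM over the 22 genes of a hypoxia list (41 cells), and those just outside, with 8 or 9 UMIs, held 4749 CPM (36 cells). In ORFTOC the order was the other way, 5506 CPM in 16 cells inside and 3150 CPM in 24 cells outside. Ndufa4l2 was at 75.7 CPM inside and 280 outside in FTOC, and at 321 and 30.3 in ORFTOC.

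Igfbp2 and Ndufa4l2, which were named with Aqp3 as marks of these cells, were high in the summed counts but were not found in every cell. Igfbp2 encodes a secreted protein that binds insulin-like growth factors. Its level was 223 CPM (204 to 243) in FTOC Aqp3-high cells and 38.7 (35.3 to 42.3) in the other FTOC cells, and 119 (102 to 139) against 13.4 (12 to 15) in ORFTOC. At least 1 Igfbp2 UMI was present in 48.4% of FTOC and 40.5% of ORFTOC Aqp3-high cells, against 15.8% and 6.99% of the others. Ndufa4l2, a mitochondrial protein made under low oxygen, stood at 263 CPM against 49.2 in FTOC and at 275 against 19.9 in ORFTOC. It was detected in 33.3% and 45.2% of Aqp3-high cells and in 11% and 5.15% of the others. With every cell thinned to 5000 UMIs, which left out 6 FTOC Aqp3-high cells, Igfbp2 was detected in 40.3% and 26.2% of Aqp3-high cells and Ndufa4l2 in 27.4% and 33.3%. In Cd3e-positive cells without Epcam, which should make neither and whose median depth was 4109 UMIs in FTOC and 7181 in ORFTOC, Igfbp2 was found in 0.0975% and 0.404% and Ndufa4l2 in 0.585% and 1.27%. The median Aqp3-high cell of either pool thus had 0 UMIs of both genes, and the label holds for the summed cells rather than cell by cell.

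Across all genes with at least 50 CPM in either group, 67 of 3463 (1.93%) were 2-fold or more higher in FTOC Aqp3-high cells than in other Epcam-positive FTOC cells and 169 (4.88%) were 2-fold or more lower. In ORFTOC 111 of 3458 (3.21%) were higher and 198 (5.73%) lower. The other Epcam-positive cells are a mixture that includes cortical-type, airway-type, parathyroid-type and T-cell marked cells. A ratio below 1 can therefore stand for a gene of any of these. The cells were chosen by Aqp3, so these ratios describe them and were not tested. A gene can also pass the minimum through 1 group alone, and its ratio then leans towards that group. Of 3158 genes that reached 50 CPM in both pools, 40 were higher in both, which is 76.9% of the 52 higher in FTOC and 45.5% of the 88 higher in ORFTOC. Another 88 were lower in both, or 64.2% of 137 and 61.1% of 144. The pools do not share cells, but their cells were captured together.

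**Figure D1:**
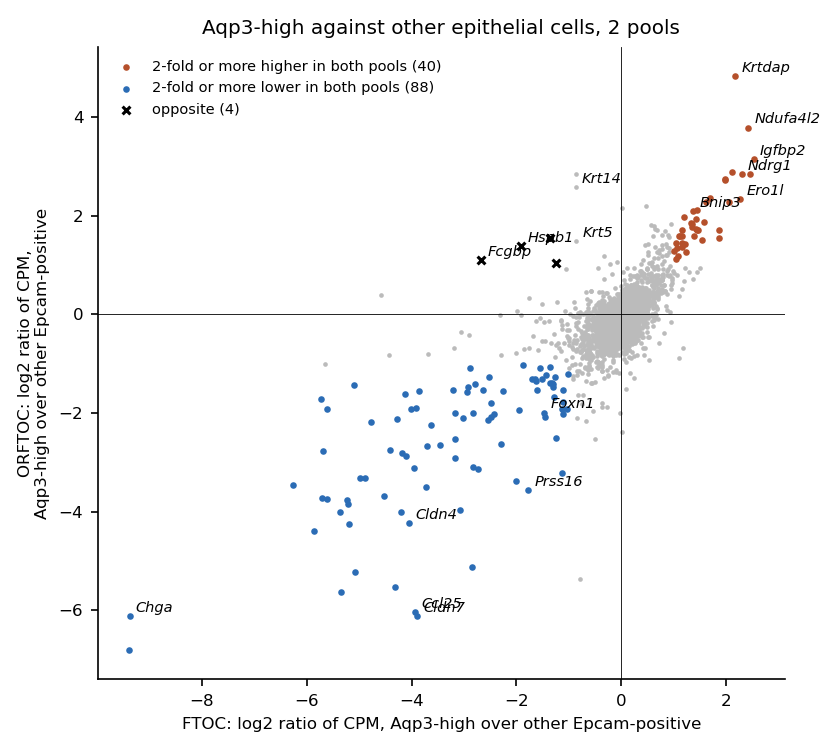
Each point is a gene, placed by the log2 ratio of its CPM in Aqp3-high over other Epcam-positive cells in FTOC (x axis) and in ORFTOC (y axis), without the genes the rule used. Ndufa4l2, Igfbp2, Ndrg1 and Ero1l lie at the upper right with 40 genes in all, and Krt14 and Krt5 lie to the left of 0 in FTOC and above 0 in ORFTOC.

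Many of the genes that stood highest are known from the response to low oxygen. Of the 22 genes of the hypoxia list, 14 reached 50 CPM in each pool, and 10 of these were 2-fold or more higher in Aqp3-high cells in FTOC and 10 in ORFTOC, against the 1.93% and 3.21% of all genes. Ndufa4l2, which had been named beforehand as a mark of these cells, is 1 of the 10 in each pool. Ndufa4l2 and Egln3 were over 50 CPM only in the Aqp3-high cells of each pool, which favours counting them as higher. In the other Epcam-positive cells of at least 1 pool, 10 list genes reached 50 CPM. The median log2 ratio of the 14 was 1.38 in FTOC and 1.71 in ORFTOC, beside -0.02 and -0.09 over all genes. Summed over the list, FTOC Aqp3-high cells held 4484 CPM and the other cells 2124, and ORFTOC Aqp3-high cells held 4822 against 1968.

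Ndrg1, a widely used hypoxia marker that was not on the list, was at 188 CPM (171 to 207) against 38.3 (35 to 41.9) in FTOC and at 232 (208 to 259) against 32.3 (30.1 to 34.7) in ORFTOC. Ero1l, the endoplasmic reticulum oxidase now called Ero1a, was at 405 CPM against 84.0 in FTOC and 314 against 62.0 in ORFTOC. Each was about as far apart in both pools, with log2 ratios of 2.30 and 2.85 for Ndrg1 and of 2.27 and 2.34 for Ero1l.

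Of the oxygen-sensing prolyl hydroxylases, Egln1 was at 254 against 87.0 CPM in FTOC and 230 against 80.7 in ORFTOC, and Egln3 was at 84.9 against 31.1 and 125 against 28.9. Vegfa, the secreted growth factor of blood vessels, was at 219 against 83.5 CPM in FTOC and 166 against 55.1 in ORFTOC. The mitochondrial proteins Bnip3, Fam162a and Higd1a followed the same direction, with log2 ratios of 1.38, 1.62 and 1.43 in FTOC and 2.09, 2.28 and 1.93 in ORFTOC.

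The list did not move as 1 block. Adm, Hif1a, Ddit4 and Bnip3l stayed within 2-fold in both pools, with log2 ratios of 0.58, 0.56, 0.23 and -0.05 in FTOC and 0.69, 0.85, 0.29 and -0.11 in ORFTOC. Hif1a encodes the oxygen-regulated subunit of HIF-1, whose level is set mainly at the protein. Car9, a surface carbonic anhydrase and one of the most oxygen-dependent genes, lay under the 50 CPM minimum, at 45.3 CPM (37.0 to 54.9) against 11.8 (9.94 to 13.8) in FTOC and 35.5 (26.2 to 46.9) against 4.13 (3.35 to 5.03) in ORFTOC.

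Glycolytic genes were the second group. In FTOC 6 of 13 list genes that reached 50 CPM were 2-fold or more higher in Aqp3-high cells, with a median log2 ratio of 0.81. In ORFTOC 10 of 15 were higher and 1, Ldhb, was lower, with a median of 1.26. Of all genes 1.93% were higher in FTOC and 3.21% in ORFTOC. The glucose carrier Slc2a1 was at 155 against 51.7 CPM in FTOC and 138 against 37.7 in ORFTOC, and the lactate carrier Slc16a3 at 72.7 against 18.2 and 80.4 against 12.0. Slc16a3 in both pools and Slc2a1 in ORFTOC were over 50 CPM only in the Aqp3-high cells. Among the enzymes, Pgk1 had log2 ratios of 1.33 and 1.86, Pgam1 of 1.12 and 1.59, Tpi1 of 1.11 and 1.59 and Pkm of 1.01 and 1.29 in FTOC and ORFTOC. Ldha, which makes lactate, had 0.68 and 1.26, whereas Ldhb, which favours the reverse step, had -0.79 and -1.01.

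Ndufa4, the paralog of Ndufa4l2 that sits in complex IV of the respiratory chain, was at 392 CPM in FTOC Aqp3-high cells and 654 in the others, and at 408 against 677 in ORFTOC, log2 ratios of -0.74 and -0.73. Of 13 measured genes of complex IV and the Ndufa4 paralogs, Ndufa4l2 was the 1 past 2-fold in each pool. It was already named as a mark of these cells and was over 50 CPM only in them. The median log2 ratio of the 13 genes was -0.18 in FTOC and -0.06 in ORFTOC. Of all genes 1.93% were 2-fold or more higher in FTOC and 3.21% in ORFTOC.

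**Figure D2:**
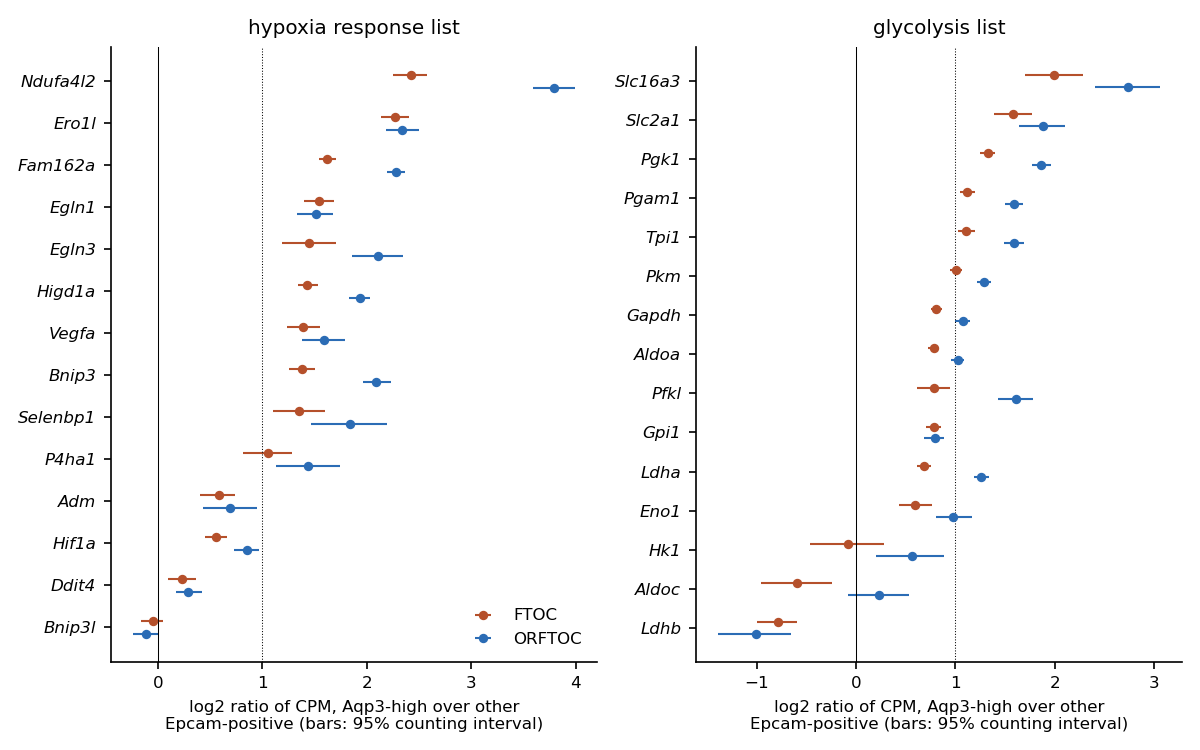
Points give the log2 ratio of CPM in Aqp3-high over other Epcam-positive cells for the genes of the hypoxia and glycolysis lists that reached 50 CPM in any group, and bars the 95% counting interval. The dotted line marks 2-fold. Ndufa4l2 stands farthest to the right in both pools, at 2.42 and 3.79, and Bnip3l lies near 0.

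The level of these lists followed the Aqp3 count also below the minimum. Among Epcam-positive cells within the other limits, the hypoxia list went from 1835 CPM in 320 FTOC cells with no Aqp3 UMI to 2415, 3028, 3424 and 6079 CPM in cells with 1 to 4, 5 to 9, 10 to 19 and at least 20 UMIs. In ORFTOC the steps were 1931, 2682, 3202, 4217 and 5528 CPM. Ndufa4l2 stood at 20.1 and 18.7 CPM in the cells without Aqp3 and reached 455 and 391 CPM in those with at least 20 UMIs. The glycolysis list went from 4140 to 11165 CPM in FTOC and from 3680 to 10137 in ORFTOC. The median depth of these bins lay between 10672 and 12524 UMIs in FTOC, but was 17193 in the top bin of ORFTOC, and its part there was not tested.

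**Figure D3:**
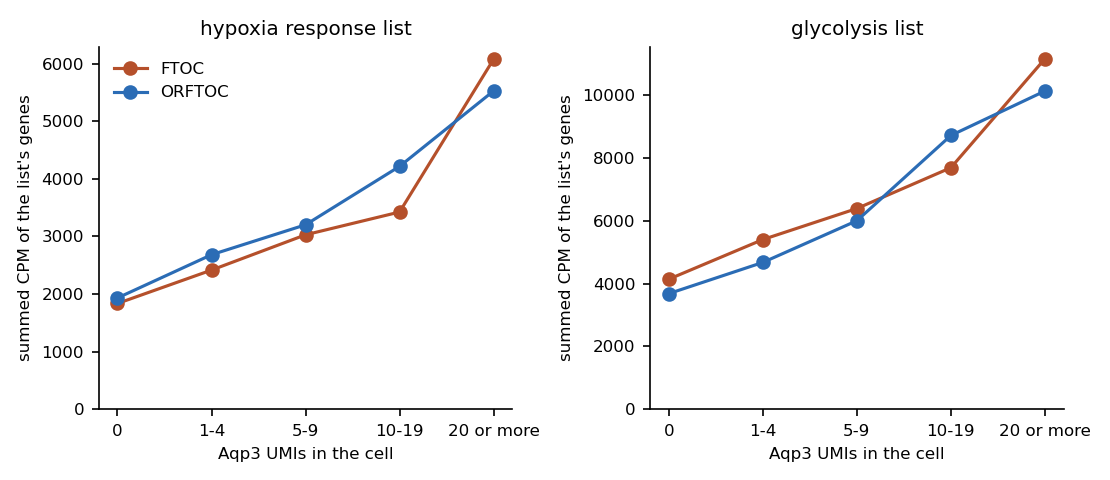
Summed CPM of the hypoxia list (left) and glycolysis list (right) in Epcam-positive cells of each pool by the number of Aqp3 UMIs, in cells that passed the other limits of the rule. Both lists are lowest at 0 UMIs and highest at 20 or more, with 68 FTOC and 34 ORFTOC cells in the last bin.

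Promoters of 4 genes are printed to show where the core of the HIF binding element occurs, since the genes of this pathway were high together. Each spans the annotated start of the gene (RefSeq, GRCm38.p6, the same build as the mm10 of the data) and is written 5′ to 3′ on the gene's strand. Capitals mark ACGTG or GCGTG on either strand. Aqp3 lies at chr4:41098134-41098433 on the minus strand, Igfbp2 at chr1:72824230-72824529 on the plus strand, Ero1a at chr14:45318523-45318822 on the minus strand and Bnip3 at chr7:138909457-138909756 on the minus strand.
Aqp3: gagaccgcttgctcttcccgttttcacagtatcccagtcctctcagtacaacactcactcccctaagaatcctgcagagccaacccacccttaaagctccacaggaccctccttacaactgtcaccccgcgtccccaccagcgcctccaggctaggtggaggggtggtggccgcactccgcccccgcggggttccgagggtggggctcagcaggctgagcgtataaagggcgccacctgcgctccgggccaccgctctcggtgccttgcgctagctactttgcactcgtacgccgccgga
Igfbp2: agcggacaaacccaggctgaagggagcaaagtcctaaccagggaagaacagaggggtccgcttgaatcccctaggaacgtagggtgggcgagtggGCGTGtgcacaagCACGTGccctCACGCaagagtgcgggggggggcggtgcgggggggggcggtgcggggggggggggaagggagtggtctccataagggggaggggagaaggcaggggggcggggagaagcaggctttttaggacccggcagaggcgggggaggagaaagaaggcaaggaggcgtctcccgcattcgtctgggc
Ero1a: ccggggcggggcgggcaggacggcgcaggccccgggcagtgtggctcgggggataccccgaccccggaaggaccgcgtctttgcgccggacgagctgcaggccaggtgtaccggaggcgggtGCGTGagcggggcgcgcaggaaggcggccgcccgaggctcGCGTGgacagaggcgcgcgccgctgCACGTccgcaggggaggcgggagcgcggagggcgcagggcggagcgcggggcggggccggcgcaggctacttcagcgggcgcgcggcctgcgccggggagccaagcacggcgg
Bnip3: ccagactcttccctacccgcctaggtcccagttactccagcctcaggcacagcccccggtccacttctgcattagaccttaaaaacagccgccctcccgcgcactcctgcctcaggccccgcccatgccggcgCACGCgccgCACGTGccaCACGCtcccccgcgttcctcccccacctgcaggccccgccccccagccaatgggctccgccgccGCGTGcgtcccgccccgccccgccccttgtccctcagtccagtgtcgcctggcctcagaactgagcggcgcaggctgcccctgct
The Aqp3 window held 0 cores, Igfbp2 4, Ero1a 3 and Bnip3 5. Both strands were counted, so CACGTG, which reads the same on each, holds 2 overlapping cores within 1 capitalised stretch. Igfbp2 had 2 annotated promoters, of which 1 is printed. A core was present in 19 of the 24 promoters found for 19 genes of the hypoxia list (79.2%), in 29 of 37 for 24 glycolysis genes (78.4%) and in 43.8% of all 32851 promoters. A match is a stretch of letters and no evidence of binding, and the promoters of Ndufa4l2 and Ndrg1 were not analysed here.

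Beyond oxygen and glucose, Igfbp4, a second binding protein of insulin-like growth factors, was at 831 CPM (794 to 869) against 361 (351 to 372) in FTOC and 1225 (1168 to 1285) against 312 (304 to 319) in ORFTOC. Of the measured genes of this system, 2 of 4 were 2-fold or more higher in FTOC and 4 of 5 in ORFTOC, against 1.93% and 3.21% of all genes. In each pool these include Igfbp4 and Igfbp2. Igfbp2 had been named beforehand as a mark of these cells and was over 50 CPM only in them. The other 2 in ORFTOC, Igfbp3 and Igfbp7, came from few cells, since 3 of the 84 cells gave 85.0% of the Igfbp3 and 98.4% of the Igfbp7 UMIs. Igfbp7 was lower in FTOC Aqp3-high cells, at 29.6 against 70.3 CPM.

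Keratins were not higher as a group in FTOC, where 0 of 7 measured were 2-fold higher and 1 was lower, with a median log2 ratio of -0.86. Of all genes 1.93% were higher and 4.88% lower there. In ORFTOC 4 of 9 keratins were higher and 4 lower, against 3.21% and 5.73% of all genes. Sprr1a, a precursor of the cornified envelope, was at 1313 CPM against 241 in FTOC and 2336 against 326 in ORFTOC, and 51% and 77.4% of Aqp3-high cells held it. At 5000 UMIs a cell the shares were 45.7% and 72.6%, and 1.76% and 1.44% of the Cd3e-positive cells without Epcam held it unthinned. Krtdap, which keratinocytes make as they differentiate, was at 67.5 against 15 CPM in FTOC and at 453 against 15.8 in ORFTOC. In FTOC 3 cells gave 56.1% of its UMIs. Over 7 keratinocyte markers the sum was 146 CPM against 120 in FTOC, with Spink5 at 0, and 546 against 103 in ORFTOC, 453 of it Krtdap.

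Some genes of secreted matrix were higher. Of the list of basement membrane and adhesion genes, 0 of 7 measured were 2-fold higher in FTOC (1.93% of all genes) and 3 of 9 in ORFTOC (3.21%). The median log2 ratio of this list was 0.46 in FTOC and 0.80 in ORFTOC. Its genes summed to 1072 against 846 CPM in FTOC and to 1444 against 714 in ORFTOC. Col4a1 and Col4a2 had log2 ratios of -0.17 and 0.16 in FTOC and of 0.83 and 0.80 in ORFTOC. Col18a1, a collagen of basement membranes, was at 160 against 43.7 CPM in FTOC and 78.2 against 26.5 in ORFTOC. Col6a1 and Col6a2 had log2 ratios of 1.87 and 1.47 in FTOC and 1.71 and 1.71 in ORFTOC, and Fbln1, which encodes fibulin-1, had 1.35 and 1.77. Summed mesenchyme markers did not move with them in FTOC, at 50.5 CPM in Aqp3-high cells and 103 in the others with Pdgfrb at 0, and stood at 417 against 352 in ORFTOC. Ngfr, a neurotrophin receptor, was at 137 against 50.7 CPM in FTOC and 82.6 against 24.8 in ORFTOC, and Tnfrsf18, the receptor GITR, at 178 against 65.2 and 80.4 against 24.5. Spry1, a feedback inhibitor of growth factor signalling, was at 203 against 75.1 CPM in FTOC and at 78.9 against 43.2 in ORFTOC.

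Cyp2a5 also ranked among the highest ratios in FTOC, at 164 against 52.8 CPM, but 3 of the 192 cells gave 99.7% of its UMIs and 2.08% of cells held any, against 4.34% of the others.

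The lowest ratios were for genes of other cell kinds, some of them held by few cells. In the clustering described below, the cluster led by Pth, Chga and Mt3 held 16 FTOC cells. The parathyroid hormone gene Pth was at 3.05 CPM in FTOC Aqp3-high cells and 2047 in the others, Chga at 2.18 against 1446 and Mt3 at 0 against 364, which puts Mt3 at least 279-fold lower with a floor of 3 UMIs over the group. Spink8 was at 0 against 100 CPM, at least 76.9-fold lower. Psors1c2, Reg3g, Serpinb11, Cxcl9, Tbata and Cd52 had log2 ratios between -6.30 and -5.10. Tight-junction claudins were also low. Cldn4 was at 6.53 against 107 CPM in FTOC and 12.3 against 231 in ORFTOC, and Cldn7 at 7.4 against 110 and 0.724 against 151. Cldn3 was at 13.1 against 93.6 CPM in FTOC and at 0 against 75.7 in ORFTOC.

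Cortical genes were low. Of 11 measured genes of the cortical list 4 were 2-fold or more lower in FTOC and 1, Cxcl12, was higher, with a median log2 ratio of -0.74. In ORFTOC 8 of 12 were lower, with a median of -1.27. Of all genes 4.88% were lower in FTOC and 5.73% in ORFTOC. The Psmb11 limit of the rule left out 0 of the cells with enough Aqp3 in either pool. The comparison holds 38 FTOC and 183 ORFTOC cells over that limit but within the others, with Prss16 at 2644 and 3789 CPM. A low Prss16 was not particular to Aqp3-high cells. Cells over the airway limit but not the Cd3e limit held 19.3 CPM in FTOC and 22.3 in ORFTOC. Ccl25 was at 11.8 against 180 CPM in FTOC and 9.41 against 616 in ORFTOC, Prss16 at 77.5 against 264 and 55.8 against 659, and Foxn1, the transcription factor that thymic epithelium depends on, at 23.1 against 63.8 and 15.9 against 63.3. Of the list of MHC class II presentation 0 of 9 measured genes passed 2-fold in FTOC and 2 of 10 were lower in ORFTOC, where the list summed to 16435 against 20995 CPM. Of 11 measured genes of MHC class I and the immunoproteasome 0 passed 2-fold in FTOC and 1, Psmb10, was lower in ORFTOC, at -1.11. H2-Aa was at 2616 against 2971 CPM in FTOC and 2465 against 2593 in ORFTOC, and Cd74 at 7883 against 8767 and 7516 against 7998.

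Markers of other cell types varied. Airway markers, of which the rule capped 4 genes, summed to 329 CPM in FTOC and 1093 in ORFTOC Aqp3-high cells, with Muc5b at 0 in both. Macrophage and mesenchyme markers stood at 663 and 417 CPM in ORFTOC and are described at the end. Thyroid markers gave 0 UMIs for all 5 genes in both pools. Summed thymocyte markers were at 29.6 CPM in FTOC and 60.8 in ORFTOC Aqp3-high cells against 403 and 457 in the others. The others include 142 FTOC and 246 ORFTOC cells over the Cd3e limit of the rule, of which 5 and 13 met the Aqp3 minimum. Tuft markers were at 2.18 and 19.6 CPM with Trpm5 and Avil at 0 in both. Cycling markers were at 235 against 347 CPM in FTOC and 93.4 against 284 in ORFTOC.

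The Aqp3-high cells were not 1 kind of cell. The 3012 Epcam-positive cells were clustered without the 9 genes of the rule. Of the 20 nearest neighbours, 41.5% for an FTOC and 37.0% for an ORFTOC Aqp3-high cell were themselves Aqp3-high, against 9.16% over all cells. For the other Epcam-positive cells the share was 11.6% in FTOC and 4.01% in ORFTOC. Yet 6 of 19 clusters each held at least 5% of the Aqp3-high cells of a pool. A cluster led by Ndufa4l2, Krtdap, Ndrg1 and Igfbp2 held 45 FTOC (23.4%) and 37 ORFTOC (44.0%) Aqp3-high cells of its 140. A cluster led by Aebp1, Prss33, Ackr4 and Nqo1 held 88 FTOC Aqp3-high cells (45.8%) and 0 from ORFTOC, among 248 FTOC and 25 ORFTOC cells. Others sat in clusters led by Rgs5 and Acta2 (25 and 13), by the muscle genes Myl1 and Myh4 (20 and 14), by Ccl11 (2 and 10) and by the mitotic genes Cenpf and Cdc20 (11 and 2). At a coarser resolution the Ndufa4l2-led and Aebp1-led cells fell into 1 cluster with 124 FTOC (64.6%) and 37 ORFTOC (44.0%) of the Aqp3-high cells. At a finer one the Ndufa4l2-led cluster again held 45 and 37. Both resolutions were chosen after the clusters had been seen.

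**Figure D4:**
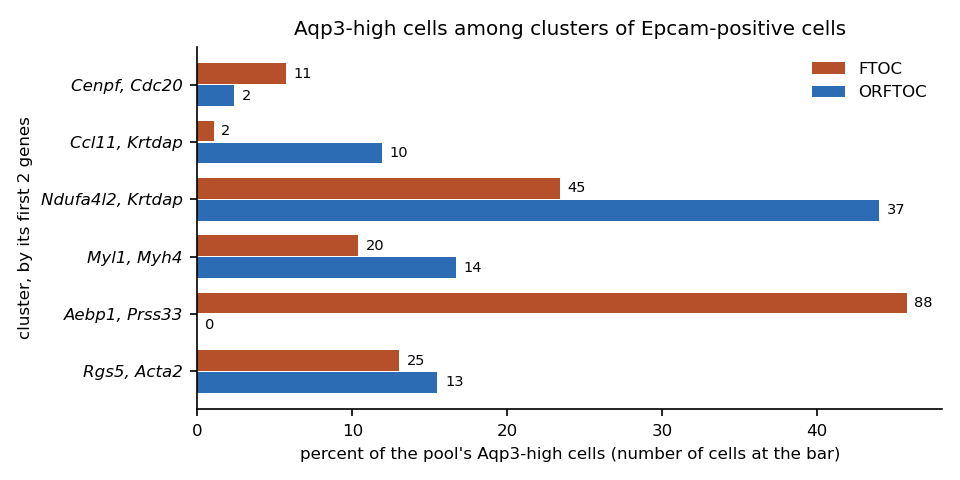
Bars give the percent of each pool's Aqp3-high cells in the clusters that held over 5% of them in either pool, and the numbers at the bars are cells. The cluster led by Aebp1 and Prss33 holds 88 FTOC cells and 0 ORFTOC cells, while the cluster led by Ndufa4l2 holds 45 and 37.

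The Ndufa4l2-led cluster, which was partly defined by hypoxia genes, gave 54.1% of the hypoxia list UMIs of FTOC and 62.4% of those of ORFTOC Aqp3-high cells. Its 45 FTOC cells gave 24.9% of all UMIs of FTOC Aqp3-high cells, and of its leading and other single genes 82.4% of the Ndufa4l2, 76.4% of the Ndrg1, 72.4% of the Ero1l and 91.3% of the Car9 UMIs. They gave 64.8% of the Igfbp2 UMIs. The 37 ORFTOC cells gave 44.4% of all UMIs and 86.3% of Ndufa4l2, 74.1% of Ndrg1 and 64.8% of Igfbp2. The hypoxia list stood at 9725 CPM in the FTOC and 6776 in the ORFTOC cells of that cluster. In the 88 FTOC cells of the Aebp1-led cluster it stood at 3100 CPM, and in those of the Rgs5-led cluster at 1962, below the 2124 of the other Epcam-positive FTOC cells. In ORFTOC the Aqp3-high cells of the clusters led by Rgs5, Myl1 and Ccl11 held 3424, 3731 and 3037 CPM, above the 1968 of the other cells. The glycolysis list was still at 7903 CPM in the 88 cells, against 4988 in the other Epcam-positive cells. Aqp3 was at 1851 CPM (1764 to 1941) in these 88 cells and at 2282 (2160 to 2410) in the 45.

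Between the pools, the hypoxia and glycolysis lists of Aqp3-high cells stood at like levels. Of 14 measured hypoxia genes 0 differed by 2-fold, with a median log2 ratio of ORFTOC over FTOC of 0.08, and 1 of 15 glycolysis genes was 2-fold higher and 1 lower with a median of 0.14. Over all genes 135 of 3325 (4.06%) were 2-fold or more higher in ORFTOC and 81 (2.44%) lower. Ndufa4l2 had a log2 ratio of 0.07 (-0.12 to 0.26) and Slc2a1 of -0.16 (-0.42 to 0.10), while Igfbp2 had -0.90 (-1.16 to -0.64). The Igfbp2 difference changed with the hashtag rule, and its log2 ratio was -0.08 among cells with at least 95% of hashtag UMIs in 1 pool. Each interval covers counting error only. The kind of culture, the source of the cells and the sex and age of the embryos cannot be told apart between 2 pools.

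Keratins differed between the pools. Of 8 measured keratin genes 5 were 2-fold or more higher in ORFTOC and 1, Krt7, lower, against 4.06% and 2.44% of all genes. The 16 keratins of the list summed to 10138 CPM in ORFTOC and 3467 in FTOC. Krt14, which with Krt5 forms the filaments of basal epithelial cells, was at 1757 CPM (1688 to 1828) in ORFTOC and 85.3 (73.8 to 98.1) in FTOC Aqp3-high cells. It was detected in 78.6% of ORFTOC and 27.1% of FTOC cells, or 70.2% and 21.0% at 5000 UMIs, and in 0.809% and 0.731% of the Cd3e-positive cells without Epcam. Krt5 was at 4091 (3985 to 4199) against 517 (488 to 547), and the median cell held 2030 CPM in ORFTOC and 0 in FTOC. Krt15 was at 368 against 27.9 CPM, Krt17 at 962 against 326 and Krt6a at 118 against 7.4, though 3 cells gave 62.6% of the ORFTOC Krt6a UMIs. In the other Epcam-positive cells the same log2 ratio was 0.91 for Krt14, 0.65 for Krt5 and 0.01 for Krt15, against 4.36, 2.99 and 3.72 in Aqp3-high cells. Against the other Epcam-positive cells of their own pool, Krt14 and Krt5 were higher in ORFTOC Aqp3-high cells, at log2 ratios of 2.58 and 1.48. In FTOC the same ratios were -0.87 and -0.86. Whether the ratios differ between the pools could not be tested.

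Some genes that anchor basal cells were also higher in ORFTOC. Itgb4, the integrin of hemidesmosomes, was at 271 CPM in ORFTOC and 109 in FTOC Aqp3-high cells, and Col17a1, the hemidesmosomal collagen, at 54.3 against 6.09. Of the 10 measured genes of basement membrane and adhesion 3 were 2-fold or more higher in ORFTOC and none lower. Ly6d was at 152 against 5.22 CPM, and Fcgbp at 209 against 8.27 with 60.4% of its ORFTOC UMIs in 3 cells. Fdps, an enzyme of sterol synthesis, was at 146 against 54.0 CPM, and 4 of 11 genes of its list were 2-fold or more higher in ORFTOC. For these counts the share over all genes was 4.06% higher and 2.44% lower.

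In the other direction, FTOC Aqp3-high cells held more Cxcl12, the chemokine that draws T-cell progenitors into the cortex. It was at 633 CPM (600 to 666) in FTOC and 83.3 (68.8 to 100) in ORFTOC, and was detected in 92.2% against 47.6% of cells, or 85.5% and 34.5% at 5000 UMIs. In Cd3e-positive cells without Epcam 0.878% and 1.27% had a Cxcl12 UMI. It was higher in Aqp3-high than in other Epcam-positive cells in FTOC, at a log2 ratio of 1.10, and at -0.88 in ORFTOC. Cells over the Psmb11 limit but within the other limits held more Cxcl12 than the Aqp3-high cells of their pool. Its level there was 1024 CPM in 38 FTOC cells and 565 CPM in 183 ORFTOC cells. Nqo1, a quinone reductase, was at 125 against 32.6 CPM, Enho at 267 against 88.3, Prss33 at 249 against 91.2, Aldh1a3, which makes retinoic acid, at 155 against 56.5, Amot at 148 against 50.7, Aebp1 at 134 against 48.5 and Mmp9 at 356 against 135. For Nqo1, Enho, Aebp1, Prss33 and Mmp9 the other Epcam-positive cells showed log2 ratios of -1.63, -1.35, -1.38, -1.18 and -1.04, close to the -1.94, -1.59, -1.46, -1.45 and -1.40 of the Aqp3-high cells. Cxcl12 had -0.94 in the other cells and -2.93 in the Aqp3-high cells. Xist was lower in ORFTOC in both, at -1.41 and -1.25.

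**Figure D5:**
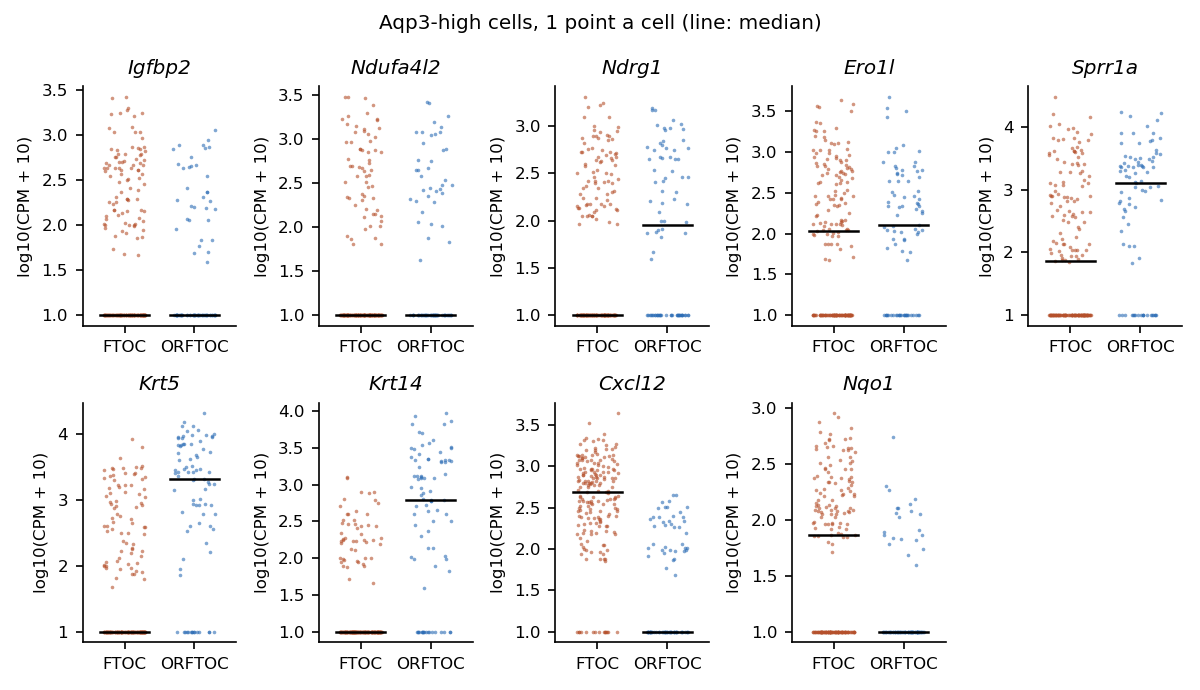
Each point is an Aqp3-high cell, placed by log10 of its CPM plus 10, with the 192 FTOC cells at the left and the 84 ORFTOC cells at the right of each panel and a line at the median. Cells without a UMI lie at 1. The cells spread widely in both pools for Igfbp2, Ndufa4l2, Ndrg1 and Ero1l, while Krt5 and Krt14 sit higher in ORFTOC and Cxcl12 and Nqo1 higher in FTOC.

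The composition of clusters differs between the pools, so the same genes were read within the Ndufa4l2-led cluster, in 37 ORFTOC and 45 FTOC Aqp3-high cells. There Krt14 was at 2571 against 38.4 CPM, Krt5 at 6091 against 775 and Krt15 at 623 against 15.7. Cxcl12 was at 57.1 against 623 CPM and Nqo1 at 26.1 against 61.1. Not every difference between the pools held there. Mmp9 was at 99.5 against 90.7 CPM, a log2 ratio of 0.13 (-0.42 to 0.70), whereas Igfbp2 was at 175 against 579 CPM, a log2 ratio of -1.73 (-2.06 to -1.41). Ccl21a, a chemokine of the medulla, was at 669 against 50.6 CPM within the cluster, whereas over all Aqp3-high cells it was at 1116 against 700. Several hypoxia genes were lower in the ORFTOC cells of this cluster, with Ero1l at 498 against 1176, Vegfa at 215 against 440 and Ndufa4l2 at 535 against 867 CPM, while Egln3 was at 212 against 229 and Hif1a at 503 against 462.

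Part of the list of genes higher in ORFTOC came from very few cells. Lyz2, a lysozyme of macrophages, was at 429 CPM against 5.22, Lgals3 at 335 against 2.18, Ctss at 130 against 6.53 and Cd52 at 115 against 8.27, and the 3 highest of 84 cells gave 98.3%, 99.1%, 88.3% and 88.1% of their UMIs. Summed over 6 macrophage markers, ORFTOC Aqp3-high cells held 663 CPM and FTOC 13.1, with Csf1r and Adgre1 at 0 in FTOC, and 2 ORFTOC cells had 10 or more such UMIs. Without cells carrying 2 or more UMIs of C1qa, C1qb, C1qc and Lyz2, which left 188 FTOC and 77 ORFTOC Aqp3-high cells and was chosen after the data were seen, the log2 ratio of Lyz2 was 0.26 in place of 6.36 and that of Lgals3 1.52 in place of 7.27, while Krt14 stayed at 4.45, Krt15 at 3.85 and Fcgbp at 4.77. Summed mesenchyme markers were at 417 CPM in ORFTOC and 50.5 in FTOC, 80.2% of it in 3 ORFTOC cells. Tbata, a cortical gene, was at 138 against 6.09 CPM with 95.8% of its ORFTOC UMIs in 3 cells. Cyp2a5, at 0.724 CPM in ORFTOC and 164 in FTOC, likewise rests on the 3 FTOC cells named above.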

How the data were processed

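Gene, hashtag and T-cell receptor libraries of 1 droplet run were analysed from the deposited barcode matrices. The authors made these counts of UMIs with Cell Ranger (6.1.2 in the submitters' processing notes, which also name Seurat 4.2.0, while the matrix header names Cell Ranger 4) on mm10, and the values are raw and not normalized. Of 705161 barcodes with 103984163 UMIs, 10910 had at least 600 genes, 10245 of these held 0.4 to 10% mitochondrial UMIs, and 9349 had at least 80% of at least 10 hashtag UMIs in 1 pool (4112 FTOC, 5237 ORFTOC). Predicted doublets were kept and left out as an alternative. UMIs were summed by pool and class in Python 3.11.15 (numpy 2.4.6, scipy 1.17.1, scanpy 1.11.5). Aqp3-high cells summed to 2297110 UMIs in FTOC and 1380974 in ORFTOC. With 1 sample a pool no count model or test was run, and log2 ratios carry a counting interval of 95%. The calculation was tested on simulated data. Clusters used 2000 variable genes, 20 components, 20 neighbours and a resolution of 0.8.

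The members, gene lists and alternatives were chosen with earlier results of these data known. Named genes were those of the lists, the 15 largest and 10 smallest ratios of Aqp3-high to other FTOC cells, and the 10 largest and 10 smallest of ORFTOC to FTOC Aqp3-high cells, all with at least 100 CPM in 1 group. Other genes were picked after their values were seen. Alternatives changed the Aqp3, Epcam, hashtag and gene minimums, the depth and the cells kept.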

Additional observations from a re-analysis of the deposited data

Results flagged for a closer look

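For 4 genes the ratio of Aqp3-high to other Epcam-positive cells pointed in opposite directions in the pools by 2-fold or more. The difference was not tested, since each pool is 1 sample. Hspb1, a small heat shock protein, had a log2 ratio of -1.91 in FTOC (25.2 against 95.1 CPM) and of 1.39 in ORFTOC (206 against 78.7 CPM), and the 3 highest ORFTOC cells gave 46.8% of its UMIs there. 2610528A11Rik had -1.36 in FTOC and 1.54 in ORFTOC. Fcgbp had -2.67 in FTOC and 1.10 in ORFTOC, where 3 cells gave 60.4% of its UMIs. Igfbp7 had -1.25 in FTOC and 1.05 in ORFTOC, where 3 of 84 cells gave 98.4% of its UMIs.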

How the results depend on the processing

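The share of Aqp3-high cells was set mainly by the Aqp3 minimum and was higher in FTOC under every alternative run. In FTOC it was 5.75% with at least 20 Aqp3 UMIs, 27.8% with at least 5, 25.5% with at least 500 CPM, 18.8% with at least 3 Epcam UMIs, 23.0% with cells thinned to 5000 UMIs and a minimum of 4, 8.76% with a hashtag share of at least 95% and 19.1% without cells carrying immune or mesenchymal markers. In ORFTOC it was 1.86%, 9.45% and 8.03% with the first 3 of these and 6.13% with thinned cells. Counts of genes followed the CPM minimum. With a minimum of 20 CPM, 143 genes were 2-fold higher and 436 lower in Aqp3-high FTOC cells, 217 and 565 in ORFTOC, and 269 and 248 in ORFTOC over FTOC Aqp3-high cells. With 200 CPM the counts were 27 and 25, 47 and 29, and 34 and 14. With at least 20 Aqp3 UMIs 109 genes were higher in FTOC, and 147 were lower in ORFTOC than in FTOC Aqp3-high cells, a count that was 31 with at least 5 UMIs, 46 with 500 CPM and 156 with the stricter hashtag share. Of 806 values of 62 gene ratios under 13 alternatives, 605 stayed within the 95% counting interval of the main ratio and 196 moved outside it. The other 5 changed sign. Cyp2a5 in Aqp3-high against other FTOC cells had a log2 ratio of -4.51 with at least 20 Aqp3 UMIs and -5.07 with thinned cells, and ORFTOC over FTOC it had 0.52 and 1.35, and the cause was not tested. Cd52 ORFTOC over FTOC was -0.03 without immune or mesenchymal marked cells. Ndufa4l2 ranged from 1.89 to 2.98 in FTOC and from 3.55 to 4.35 in ORFTOC, Krt14 between pools from 3.22 to 5.30 and Cxcl12 from -3.11 to -2.07. A hashtag share of 60%, the removal of macrophage-marked cells and the other cluster resolutions were chosen after seeing the data. Predicted doublets included 20 Aqp3-high cells. No paired analysis was possible because each pool is 1 sample and no result comes from a test.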
